A study of Ovis aries with 2 samples.

Results

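This account follows 10 early response genes of sheep blood cells, EGR1, EGR2, EGR3, NR4A1, NR4A2, NR4A3, DUSP1, DUSP2, IER2 and IER5, chosen by name from the 26761 gene names counted. Peripheral blood mononuclear cells were profiled fresh, without culture, by droplet single-cell RNA sequencing of transcript 3′ ends, in which each molecule carries a unique molecular identifier (UMI). The A.G.-ES library came from sheep in which a suture had been embedded at the acupuncture point ST36 of both sides. According to the series title, the animals were weaned lambs and the suture released astragaloside IV and glycyrrhizic acid. The other library came from untreated sheep. Dead cells and debris had been removed where needed. The number of animals behind each library is not given in the labels, nor are age, breed and the time after embedding, and no sham suture group is among the libraries analysed. With 1 library per group there is no replicate check, so no test between the treatments was made. All intervals are 95% intervals that cover counting error only.

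Early response genes are transcribed within minutes of a signal from existing transcription factors, without new protein synthesis, and most of their RNAs decay quickly. In lymphocytes, antigen receptor signals reach them through the MAP kinases ERK, JNK and p38 and through calcium. EGR1, EGR2 and EGR3 are zinc-finger transcription factors, and EGR2 and EGR3 are known in mouse T cells for restraining activation. NR4A1, NR4A2 and NR4A3 are orphan nuclear receptors induced by antigen receptor signals. DUSP1 and DUSP2 are nuclear phosphatases that switch MAP kinases off again, and DUSP1 is also a glucocorticoid target. IER2 and IER5 are small nuclear proteins of the early response.

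Barcodes were sorted into 6 gates by UMIs of marker genes, and none of the 10 genes took part in a gate. The CD4 T gate held 1415 A.G.-ES and 360 untreated barcodes, the CD8B T gate 555 and 177, and the SOX13/RHEX T gate, named after 2 genes that are high in a large sheep T-cell population, 601 and 1115. The B gate held 1822 A.G.-ES and 3356 untreated barcodes and the monocyte gate 247 and 171. The NK gate, which required NCR1 with no CD3D or CD3E, held 55 and 35, and its values are coarse. Together the gates took in 4695 of 8737 kept A.G.-ES barcodes and 5214 of 7565 untreated ones. The names of the gates were set against markers that no gate used. B markers such as EBF1 and CD22 summed to 2631 CPM (UMIs per 1000000) in A.G.-ES and 4391 CPM in untreated B barcodes, and to at most 449 CPM in any other gate. Monocyte markers summed to 4153 and 4342 CPM in the monocyte gate and to at most 70.9 CPM elsewhere. CD4 T markers summed to 3001 CPM in A.G.-ES and 3128 CPM in untreated CD4 T barcodes. In any other gate they summed to at most 1437 CPM, in A.G.-ES SOX13/RHEX T barcodes. Cytotoxic and CD8 markers did not separate CD8B T from NK barcodes. They summed to 2793 CPM in A.G.-ES and 1054 CPM in untreated CD8B T barcodes, and to 2380 and 1682 CPM in NK barcodes. NK markers did not separate NK from CD8B T barcodes: they summed to 3186 CPM in A.G.-ES and 6546 CPM in untreated NK barcodes, and to 6071 and 7268 CPM in CD8B T barcodes. In monocyte barcodes the NK markers summed to 2178 and 2062 CPM.

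The gates were not alike in the 2 libraries. Cycling markers (MKI67, TOP2A, CENPF and RRM2) summed to 71.3 CPM in A.G.-ES and 298 CPM in untreated CD4 T barcodes, to 96.3 and 969.7 CPM in CD8B T barcodes and to 22.9 and 237 CPM in B barcodes. Median depth was 4683 UMIs in A.G.-ES and 5179.5 UMIs in untreated CD4 T barcodes and 5278 and 8878 UMIs in B barcodes, but 6445 and 4127 UMIs in monocyte barcodes. Mitochondrial genes took 2.20% of A.G.-ES and 1.37% of untreated UMIs. The 85 genes of the Y chromosome gave 754 UMIs in the A.G.-ES and 40447 in the untreated library, and the sex or number of animals behind that cannot be told apart from the treatment. Within the CD8B T gate, cytotoxic and CD8 markers that the gate did not use summed to 2793 CPM in A.G.-ES and 1054 CPM in untreated barcodes, and B markers to 31.1 and 214 CPM. The part of these differences in the results was not tested, beyond the values given without cycling or antibody secretion barcodes. The libraries shared 61 cell barcodes. As a gauge of free RNA at 1500 UMIs per barcode, GNLY, a gene of cytotoxic cells, was found in 5.96% of A.G.-ES and 0.852% of untreated B barcodes. CCL5, a chemokine gene of cytotoxic cells, was found in 9.08% of A.G.-ES and 0.735% of untreated SOX13/RHEX T barcodes. Of B-cell genes, EBF1 was found in 0.500% of A.G.-ES and 1.96% of untreated CD4 T barcodes. BANK1 was found in 2.74% and 16.6% of CD8B T, 2.56% and 17.9% of NK and 16.1% and 19.5% of monocyte barcodes.

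The comparison of the libraries asked which of the 10 genes differed in level within a gate, taking 1.5-fold as the mark. Of all genes, 4.73% to 13.3% were past it in the higher direction, depending on the gate. DUSP2 was the early gene most often past that mark, higher in the A.G.-ES library in 5 of 6 gates, with the widest ratio among the gates with more than 100 DUSP2 UMIs, 4.61-fold, in CD4 T barcodes. DUSP1 was higher in 4 of 6 gates and IER5 in 4 of the 5 gates where it had enough UMIs. Not all of these values were firm. The DUSP1 interval in NK barcodes (20 and 7 UMIs) included 1, and the DUSP1 ratio in monocyte barcodes was only just past the mark. In CD8B T barcodes the IER5 ratio fell under the mark without cycling barcodes and changed sign at 1000 UMIs per barcode. In B barcodes, where 10.4% of all genes were higher and 16.5% lower, 5 of the 10 genes were higher (DUSP2, IER5, NR4A2, NR4A1 and IER2) and the 3 EGR genes were lower. Outside B barcodes 2 values were past the mark in the lower direction, NR4A1 in SOX13/RHEX T and NR4A3 in monocyte barcodes.

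Counted by gate, over genes with at least 20 UMIs in both libraries together, 3 of 7 early genes were higher and 0 lower in CD4 T barcodes, with a median log2 ratio of 0.48. Of all 6778 genes with at least 100 UMIs in those barcodes, 5.47% were higher and 14.3% lower, and their median was -0.18. In CD8B T barcodes 5 of 7 early genes were higher and 0 lower (median 0.80), where 5.81% of all genes were higher and 24.9% lower (median -0.28). In SOX13/RHEX T barcodes 2 of 7 were higher and 1 lower (median -0.038), where all genes gave 4.73% and 15.3% (median -0.15). The SOX13/RHEX T median thus lay near 0, and that of CD8B T barcodes well above it. In NK barcodes 3 of 4 were higher and 0 lower (median 1.18), where all genes gave 13.3% and 14.8%. Of these 3 early genes, 1 had an interval that excludes a ratio of 1. None of the 4 reached the 100 UMIs asked of all genes, so the NK shares are not compared. In the other gates too, early genes entered at 20 UMIs and all genes at 100, so the counts are not fully alike. Below 100 UMIs there were the higher value of NR4A1 in CD8B T (64 and 15 UMIs) and some lower values. These were NR4A1 in SOX13/RHEX T (11 and 43), NR4A3 in monocyte (15 and 25) and EGR2 in B barcodes (10 and 62). In B barcodes 5 of 10 were higher and 3 lower (median 0.40), where all genes gave 10.4% and 16.5% (median -0.12). In monocyte barcodes 2 of 9 were higher and 1 lower (median 0.29), where all genes gave 7.87% and 12% (median -0.077). These backgrounds depend on the scaling. With TMM scaling, which assumes that most genes do not differ, 9.88% of all genes were higher and 6.40% lower in CD4 T barcodes, 15.3% and 7.94% in CD8B T, 6.75% and 10.5% in SOX13/RHEX T and 10.5% and 8.94% in monocyte barcodes. TMM added 0.21, 0.33 and 0.10 to every log2 ratio of the CD4 T, CD8B T and SOX13/RHEX T gates, and at most 0.08 in the other gates. In B barcodes TMM gave 11.2% higher and 15.5% lower, while ratios centred on the median of all genes gave 13.8% higher and 11.8% lower.

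**Figure D1:**
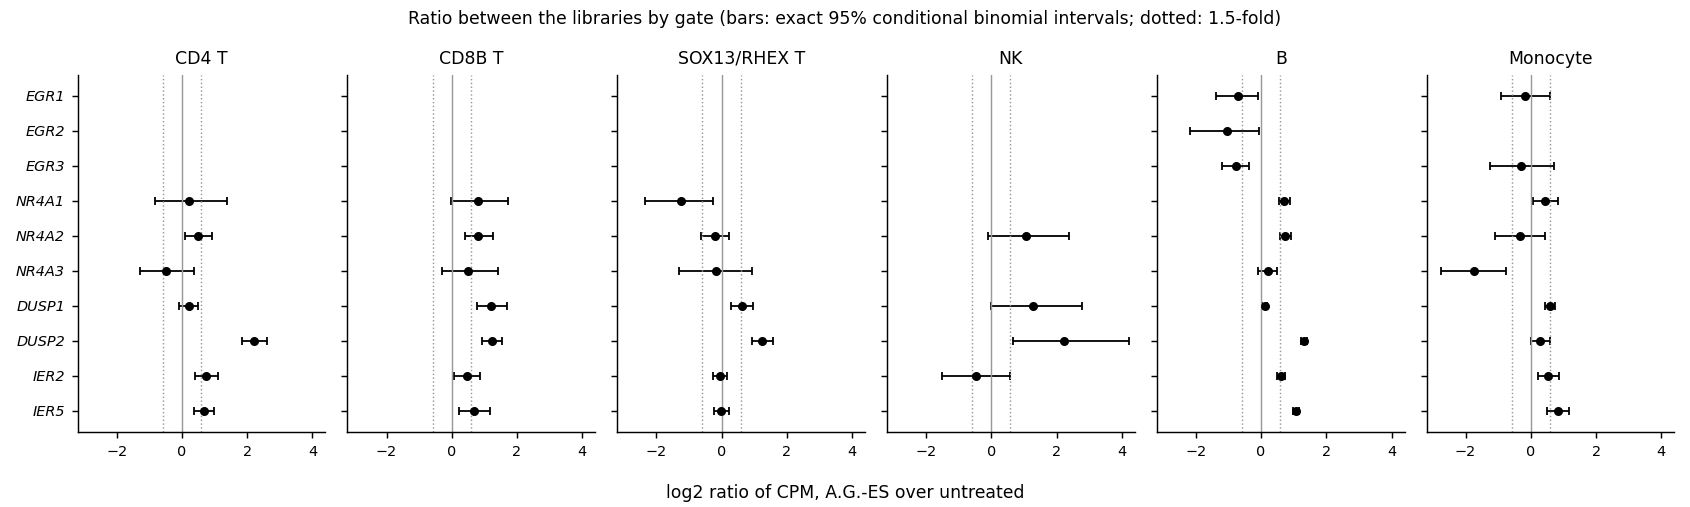
Log2 ratio of CPM, A.G.-ES over untreated (x axis), for each early gene (rows) in each of the 6 gates (panels); points are ratios of summed counts, bars exact 95% intervals for counting error, dotted lines 1.5-fold, and genes with under 20 UMIs are left blank. DUSP2 lies to the right of the upper dotted line in 5 panels, and the 3 EGR genes lie to the left of the lower one in B barcodes.

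DUSP2, a phosphatase of ERK and p38 that is mainly known from blood cells, was at 137 CPM in A.G.-ES CD4 T barcodes (128 to 146), against 29.7 CPM in untreated ones (22.6 to 38.3). These levels come from 947 and 59 UMIs, and the ratio of 4.61 has an interval of 3.54 to 6.10. In SOX13/RHEX T barcodes it was at 73.7 CPM in the A.G.-ES and 30.9 CPM in the untreated library (ratio 2.38, 1.91 to 2.99). Cytotoxic and CD8 markers summed to 192 CPM in A.G.-ES and 12.3 CPM in untreated SOX13/RHEX T barcodes, and their part in that ratio was not tested. The intervals of the 2 libraries stood apart in these gates, as they did in CD8B T barcodes, at 272 CPM in A.G.-ES and 117 CPM in untreated ones (ratio 2.33, 1.91 to 2.88). B barcodes had 177 CPM in the A.G.-ES and 71.4 CPM in the untreated library (ratio 2.48, 2.33 to 2.64), from 1893 and 2287 UMIs. NK barcodes had 22 and 4 DUSP2 UMIs, a ratio of 4.71 (1.60 to 18.8). Monocyte barcodes stood nearer together, at 218 CPM in the A.G.-ES and 178 CPM in the untreated library (ratio 1.23, 1.01 to 1.5).

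The order of the gates for DUSP2 also differed between the libraries. CD8B T barcodes stood highest in the A.G.-ES library and monocyte barcodes in the untreated one, and the intervals of these 2 gates stood apart from each other and from those of the B, CD4 T and SOX13/RHEX T gates. In the A.G.-ES library CD4 T barcodes overlapped NK barcodes and stood above SOX13/RHEX T barcodes. In the untreated library they had the lowest level, with an interval that overlapped those of the SOX13/RHEX T and NK gates. Whether the ratio differs between gates was not tested. A.G.-ES CD8B T barcodes held 0.0508 DUSP2 UMIs per GNLY UMI and untreated ones 0.0177, against 1.18 and 0.278 in CD4 T, 1.27 and 4.69 in SOX13/RHEX T, 4.84 and 5.19 in B and 6.98 and 48.3 in monocyte barcodes, where the untreated value rests on 3 GNLY UMIs. The part of free RNA in the DUSP2 levels was not tested. Leaving out the barcodes with a cycling marker UMI, which were 7.42% of A.G.-ES and 21.9% of untreated CD4 T barcodes, gave a DUSP2 log2 ratio of 2.01, beside 2.20 with all.

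DUSP1, which dephosphorylates p38, JNK and ERK, had its highest level in monocyte barcodes in both libraries. It reached 852 CPM in A.G.-ES monocyte barcodes (808 to 898) and 568 CPM in untreated ones (517 to 622), which is 1.5-fold (1.35 to 1.67) and only just past the mark. With doublets kept the log2 ratio was 0.57, with stricter gates 0.52 and without cycling barcodes 0.53, all under it. B barcodes followed at 242 CPM in the A.G.-ES and 225 CPM in the untreated library, a ratio of 1.08 (1.03 to 1.13) from 2580 and 7188 UMIs. In CD8B T barcodes DUSP1 was at 112 CPM in the A.G.-ES and 48.5 CPM in the untreated library (ratio 2.31, 1.69 to 3.22). In SOX13/RHEX T barcodes it was at 56.1 and 36.1 CPM (ratio 1.55, 1.23 to 1.95). The libraries overlapped in CD4 T barcodes, at 69.4 CPM in the A.G.-ES and 60.4 CPM in the untreated library (ratio 1.15, 0.939 to 1.42). NK barcodes had 20 and 7 UMIs (ratio 2.45, 0.993 to 6.85), with a log2 ratio of 1.29 that was 0.11 at 1500 UMIs per barcode.

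**Figure D2:**
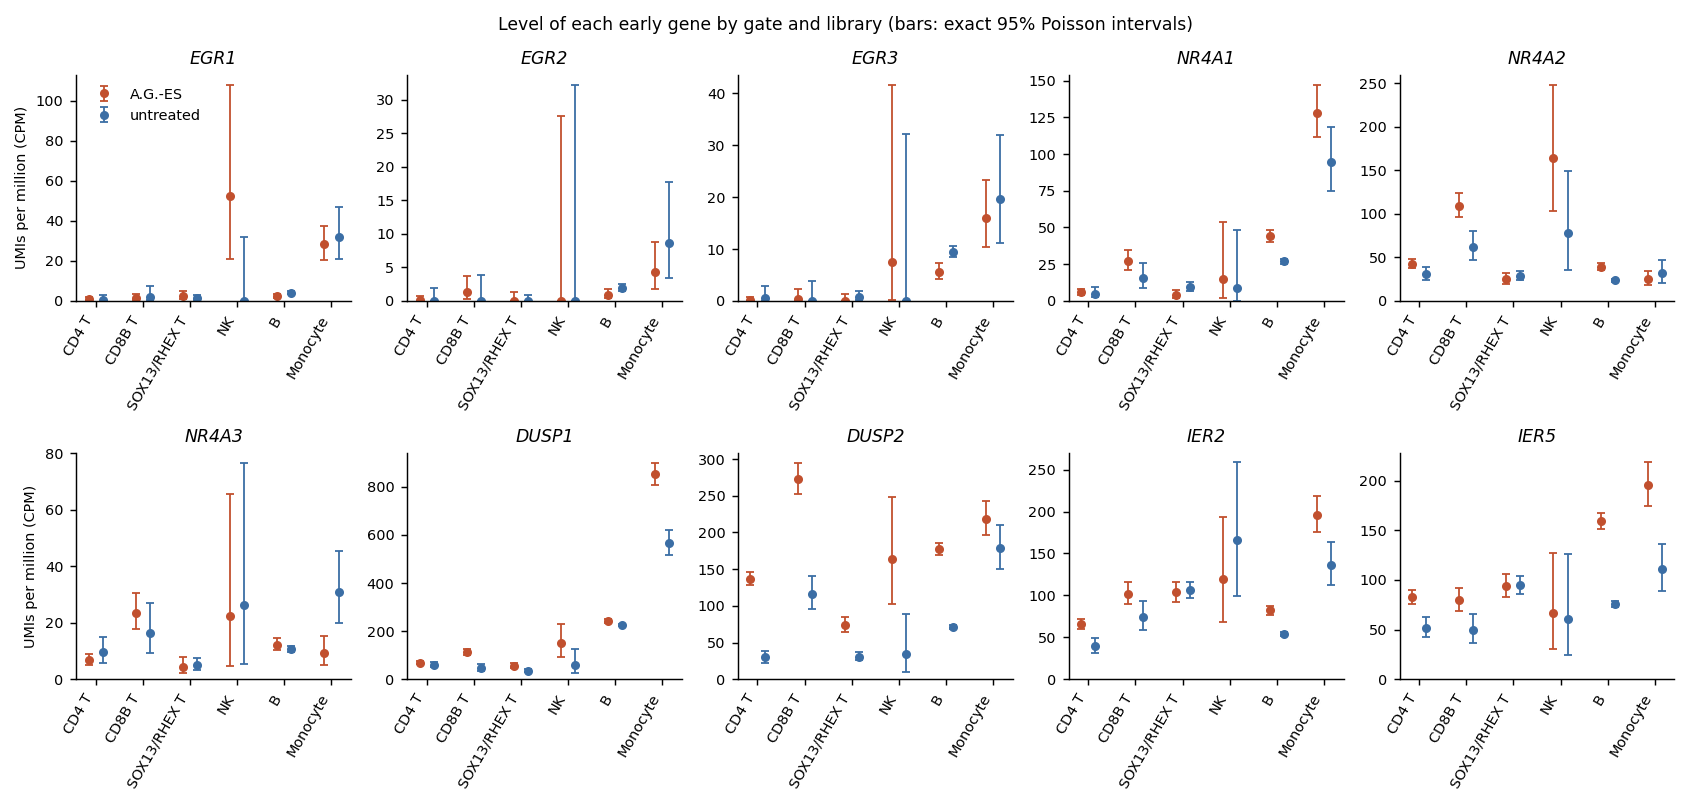
CPM of summed counts (y axis, linear from 0, own scale per panel) of each early gene in the 6 gates, with A.G.-ES (red) left of untreated (blue); bars are exact 95% Poisson intervals. Monocyte barcodes stand highest for DUSP1 and NR4A1 in both libraries, NK and CD8B T barcodes for NR4A2, and the T gates lie near 0 for EGR1, EGR2 and EGR3.

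The NR4A receptors divided the gates differently from one another. NR4A1 was highest in monocyte barcodes, at 128 CPM in the A.G.-ES and 94.6 CPM in the untreated library (ratio 1.36, 1.04 to 1.78). B barcodes came next at 44.2 CPM in the A.G.-ES (40.3 to 48.4) and 27.0 CPM in the untreated library (25.2 to 28.9), 1.64-fold (1.46 to 1.83). CD8B T barcodes had 26.9 and 15.5 CPM, from 64 A.G.-ES and 15 untreated UMIs. That ratio of 1.74 (0.979 to 3.28) includes 1, and its log2 value of 0.80 was 0.39 with every barcode given the same weight and -0.48 at 1000 UMIs per barcode. In SOX13/RHEX T barcodes NR4A1 was lower in the A.G.-ES library, at 4.11 CPM against 9.77 CPM in the untreated one, from 11 and 43 UMIs (ratio 0.421, 0.196 to 0.830). Its log2 ratio there was -1.25, and at 1500 UMIs per barcode it was -0.45. CD4 T barcodes had 5.78 and 5.04 CPM, with overlapping intervals.

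NR4A2 was highest in NK and CD8B T barcodes. CD8B T barcodes had 109 CPM in the A.G.-ES (96.4 to 123) and 62.0 CPM in the untreated library (47.3 to 79.8), 1.76-fold (1.33 to 2.38). NK barcodes had 22 and 9 UMIs (ratio 2.09, 0.926 to 5.16), and their levels overlapped those of CD8B T barcodes in each library. The log2 ratio of 1.07 in NK barcodes was 0.26 at 1500 and 0.40 at 1000 UMIs per barcode, both under the mark. B barcodes, the lowest gate for NR4A2 in the untreated library, had 39.4 CPM in the A.G.-ES and 23.6 CPM in the untreated one (ratio 1.67, 1.48 to 1.89). At 1500 UMIs NR4A2 was found in 5.96% of A.G.-ES and 3.23% of untreated B barcodes, beside 5.96% and 0.852% for GNLY. The part of free RNA in these NR4A2 values was not tested. CD4 T barcodes had 42.9 and 30.7 CPM, a ratio of 1.40 (1.06 to 1.87) whose log2 value of 0.48 was 0.69 with TMM, past the mark. SOX13/RHEX T barcodes, at 25.4 and 29.1 CPM, and monocyte barcodes, at 25.2 and 31.9 CPM, had overlapping intervals.

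NR4A3 was sparse everywhere. The B gate held most of its UMIs, 130 in the A.G.-ES and 340 in the untreated library, at 12.2 and 10.6 CPM (ratio 1.15, 0.929 to 1.41). Thinned to 1500 UMIs, 1.62% of A.G.-ES and 1.92% of untreated B barcodes had NR4A3, beside 5.96% and 0.852% for GNLY. In monocyte barcodes NR4A3 was lower in the A.G.-ES library, at 9.20 CPM from 15 UMIs against 30.7 CPM from 25 UMIs in the untreated one (ratio 0.300, 0.147 to 0.591). Thinned to 1500 UMIs, 4 of 242 A.G.-ES and 7 of 154 untreated monocyte barcodes had an NR4A3 UMI, and at 1000 UMIs the log2 ratio turned to 1.39, from too few UMIs to read a direction. CD8B T barcodes had 23.5 and 16.5 CPM (ratio 1.42, 0.806 to 2.66) and CD4 T barcodes 6.80 and 9.57 CPM (ratio 0.710, 0.409 to 1.28). SOX13/RHEX T barcodes, the lowest gate in both libraries, had 4.49 and 5.0 CPM.

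EGR genes were counted mainly in B and monocyte barcodes. EGR3 was at 5.62 CPM in A.G.-ES B barcodes (4.29 to 7.23) and at 9.53 CPM in untreated ones (8.49 to 10.7), from 60 and 305 UMIs (ratio 0.590, 0.439 to 0.780). EGR1 was at 2.43 and 3.97 CPM there, from 26 and 127 UMIs (ratio 0.614, 0.386 to 0.941). EGR2 was at 0.936 and 1.94 CPM, from 10 and 62 UMIs (ratio 0.483, 0.221 to 0.95). The 3 genes thus lay on the lower side in the same barcodes in which DUSP2, IER5, NR4A1 and NR4A2 lay on the higher side. Their lower side rests on summed counts. Thinned to equal depth, EGR3 was found in 0.613% of A.G.-ES (0.306 to 1.09%) and 1.19% of untreated B barcodes (0.846 to 1.62%). EGR1 was found in 0.334% and 0.487%, and EGR2 in 0.0557% and 0.244%. The intervals of the libraries overlapped for each gene. The A.G.-ES shares were all below the 5.96% of GNLY in A.G.-ES B barcodes. Of the untreated shares, those of EGR1 and EGR2 were below the 0.852% of GNLY in untreated B barcodes. Shares below that of GNLY in the same library are not read as expression. Without the barcodes with at least 2 UMIs over JCHAIN, MZB1 and DERL3, antibody secretion genes found in 38.1% of A.G.-ES and 63.4% of untreated B barcodes at that level, the EGR3 log2 ratio was -0.53, under the mark, beside -0.76 with all. EGR1 stood closer to the mark. Its log2 ratio of -0.70 was -0.58 when centred on the median of all genes and -0.57 without the 1% of barcodes with the most early gene UMIs.

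In monocyte barcodes EGR1 was at 28.2 CPM in the A.G.-ES and 31.9 CPM in the untreated library, and EGR3 at 16.0 and 19.7 CPM. Their ratios of 0.883 (0.535 to 1.49) and 0.811 (0.419 to 1.62) include 1. EGR2 had 7 UMIs in each of the 2 monocyte gates. In the 3 T gates together EGR1 gave 16 A.G.-ES and 9 untreated UMIs, EGR2 4 and 0, and EGR3 2 and 4. At 1500 UMIs none of the 3 genes was found in more than 0.592% of the barcodes of a T gate in either library, below the share of GNLY in untreated B barcodes, and such shares are not read as expression. In NK barcodes EGR1 had 7 UMIs in the A.G.-ES library, 4 of them in 1 barcode, and 0 in the untreated one. The interval of that 0 reaches up to 32.2 CPM.

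IER5, which helps activate the heat shock factor HSF1, was at 159 CPM in A.G.-ES B barcodes (152 to 167) and at 76.0 CPM in untreated ones (73.0 to 79.1), 2.10-fold (1.97 to 2.23). In monocyte barcodes it was at 196 and 111 CPM (ratio 1.77, 1.40 to 2.26). CD4 T barcodes had 82.7 CPM in the A.G.-ES and 51.9 CPM in the untreated library (ratio 1.59, 1.29 to 1.99). CD8B T barcodes had 79.5 and 49.6 CPM (ratio 1.60, 1.16 to 2.25), but without cycling barcodes that log2 ratio of 0.68 was 0.30, and at 1000 UMIs per barcode -0.23. IER5 was thus past the mark in B, monocyte, CD4 T and CD8B T barcodes. In SOX13/RHEX T barcodes the libraries lay side by side, at 93.8 CPM in the A.G.-ES and 94.7 CPM in the untreated one (ratio 0.991, 0.844 to 1.16). In the A.G.-ES library the SOX13/RHEX T level was below that of B barcodes, and in the untreated library it was above, with intervals apart in both.

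IER2, a nuclear protein with few well-defined targets, had the same side-by-side levels in SOX13/RHEX T barcodes, at 104 CPM in the A.G.-ES and 106 CPM in the untreated library (ratio 0.974, 0.836 to 1.13). CD4 T barcodes had 65.8 and 39.3 CPM (ratio 1.68, 1.32 to 2.16), and B barcodes 82.1 and 53.7 CPM (ratio 1.53, 1.41 to 1.66). Without antibody secretion barcodes the log2 ratio in B barcodes was 0.55, under the mark, beside 0.61 with all. CD8B T barcodes, at 102 and 74.4 CPM (ratio 1.37, 1.05 to 1.81), and monocyte barcodes, at 196 and 136 CPM (ratio 1.44, 1.16 to 1.80), stayed under the mark with the higher level in the A.G.-ES library. In both scalings that centre the ratios, TMM and the median of all genes, these 2 values were past it. NK barcodes had 16 and 19 UMIs (ratio 0.721, 0.347 to 1.48).

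Because untreated B barcodes were deeper and untreated monocyte barcodes shallower, shares of positive barcodes were compared after thinning each barcode to 1500 UMIs, which left out 209 barcodes of the 6 gates. A DUSP2 UMI was then found in 17.2% of A.G.-ES CD4 T barcodes (15.3 to 19.3%), against 3.63% of untreated ones (1.95 to 6.13%). Without thinning these shares were 39.1% and 12.5%. In B barcodes the thinned DUSP2 share was 23.7% in the A.G.-ES and 10.4% in the untreated library, and unthinned 53.6% and 36.2%. In SOX13/RHEX T barcodes it was 10.4% and 4.04% (unthinned 22.6% and 10.2%), and in CD8B T barcodes 29.0% (25.2 to 33.0%) and 20.1% (14.4 to 27.0%), with overlapping intervals (unthinned 55.9% and 40.1%). None of the 6 gates is known to lack DUSP2, so no background share of its own can be given. Its 10.4% in A.G.-ES SOX13/RHEX T barcodes (8.08 to 13.2%) stood beside 7.06% for GNLY and 9.08% (6.89 to 11.7%) for CCL5 there, and the intervals of DUSP2 and CCL5 overlapped. In monocyte barcodes its 20.7% in the A.G.-ES and 16.2% in the untreated library stood beside 16.1% and 19.5% for BANK1. EBF1 was lower there, at 0.826% and 5.19%, as were GNLY at 4.55% and 0.649% and CCL5 at 3.72% and 0%. The gauge genes thus differed, and the part of free RNA in the monocyte shares was not tested.

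IER5 was found in 23.0% of thinned A.G.-ES B barcodes (21.0 to 25.0%), against 10.9% of untreated ones (9.85 to 12%), and unthinned in 53.4% and 45.1%. DUSP1 shows what depth does to such shares. Unthinned, it was found in 49.5% of A.G.-ES and 67.3% of untreated B barcodes, while at equal depth the shares were 25.4% (23.4 to 27.4%) and 27.4% (25.8 to 28.9%). NR4A1 in monocyte barcodes was found in 15.7% of thinned A.G.-ES and 16.9% of thinned untreated barcodes, against 45.7% and 28.7% unthinned. In thinned B barcodes NR4A1 was found in 5.96% of A.G.-ES (4.91 to 7.16%) and 3.53% of untreated barcodes (2.93 to 4.22%), and unthinned in 18.3% and 14.8%. GNLY reached the same 5.96% in those A.G.-ES barcodes, while NR4A1 itself was found in 0.715% of thinned A.G.-ES and 0.838% of thinned untreated CD4 T barcodes.

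**Figure D3:**
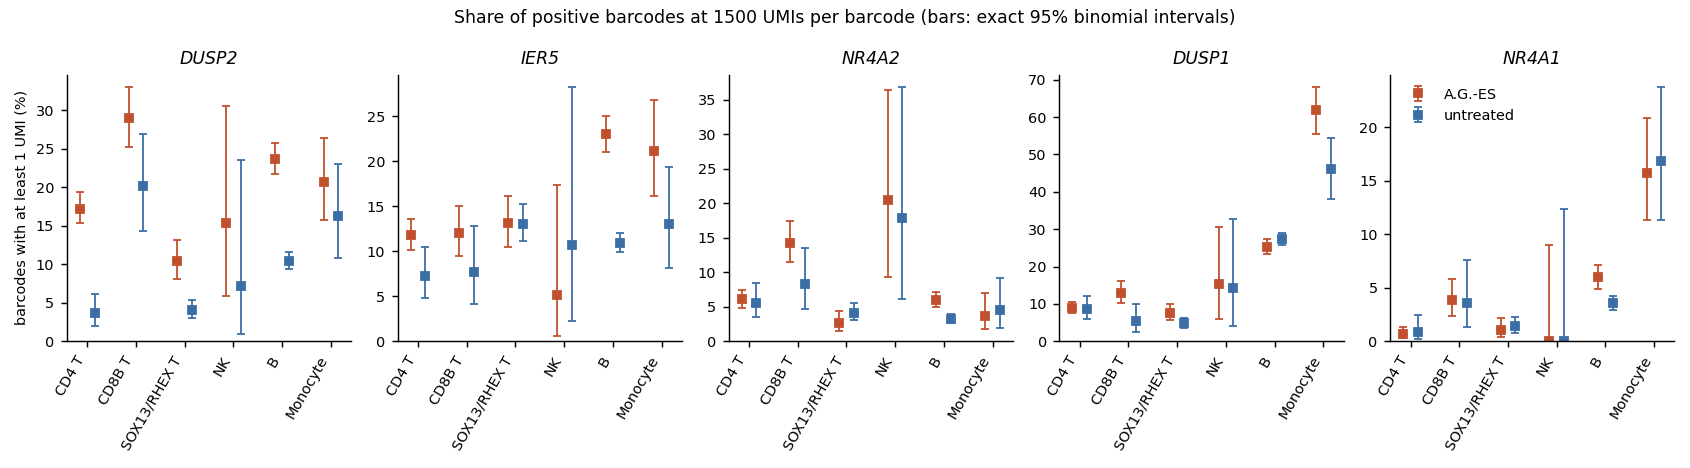
Share of barcodes with at least 1 UMI (y axis, %) after thinning to 1500 UMIs, for DUSP2, IER5, NR4A2, DUSP1 and NR4A1 in the 6 gates, A.G.-ES (red) left of untreated (blue); bars are exact 95% binomial intervals. The DUSP2 intervals stand apart in CD4 T, SOX13/RHEX T and B barcodes and overlap in CD8B T, NK and monocyte barcodes.

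The number of early genes found in 1 barcode was also higher in the A.G.-ES library. At 1500 UMIs, 56.2% of A.G.-ES CD4 T barcodes had none of the 10 genes, against 73.5% of untreated ones. In B barcodes these shares were 36.7% and 51.9%, in CD8B T barcodes 42.5% and 56.8%, in SOX13/RHEX T barcodes 60.8% and 64.6% and in monocyte barcodes 15.3% and 22.1%. At least 3 of the genes were found in 20.2% of A.G.-ES monocyte barcodes (15.4 to 25.9%) and 11% of untreated ones (6.56 to 17.1%). In B barcodes it was 6.91% (5.78 to 8.19%) and 3.14% (2.57 to 3.79%), where independent detection at the same single-gene shares would give 5.52% and 1.72%. In monocyte barcodes independent detection would give 17.0% and 10.8%, within the intervals of the observed shares.

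**Figure D4:**
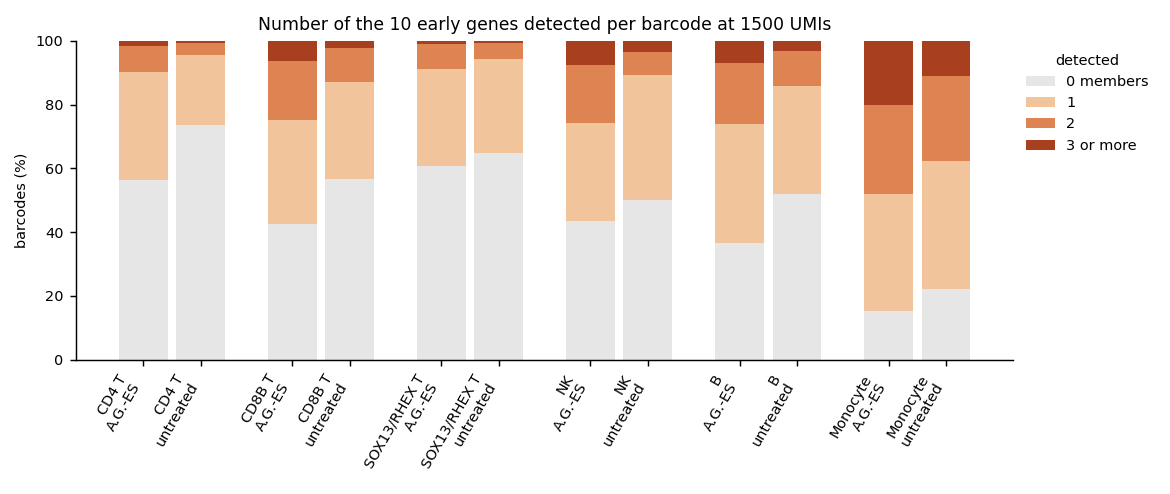
Percent of barcodes (y axis) with 0, 1, 2 or at least 3 of the 10 early genes detected at 1500 UMIs, in each gate (pairs of bars, A.G.-ES left of untreated). Monocyte barcodes hold the most genes per barcode in both libraries, and each gate has a smaller share at 0 in the A.G.-ES library.

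Co-detection of pairs was set against the product of their 2 shares at 1500 UMIs, for pairs with at least 5 barcodes expected. In A.G.-ES B barcodes 18 pairs had a median observed-to-expected ratio of 1.21, and in untreated B barcodes 18 pairs had 1.37. Pairs among genes of upstream kinases and transcription factors, taken as a yardstick, had 1.05 in A.G.-ES and 1.04 in untreated B barcodes. NR4A3 and DUSP2 were found together in 9 A.G.-ES B barcodes where 6.87 were expected (1.31-fold, 0.599 to 2.49), and in 21 untreated ones where 6.58 were expected (3.19-fold, 1.98 to 4.88). The 2 intervals of that pair overlap. NR4A1 with NR4A2 was at 2.04 times the expected number in A.G.-ES B barcodes (1.08 to 3.48). NR4A1 with DUSP2 had ratios of 1.42 (0.995 to 1.97) in A.G.-ES and 1.90 (1.20 to 2.85) in untreated barcodes. The 2 phosphatases, DUSP1 and DUSP2, were together in 129 A.G.-ES and 119 untreated B barcodes, at 1.20 (0.999 to 1.42) and 1.27 (1.05 to 1.52) times the expected number.

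A.G.-ES CD8B T barcodes had a median of 1.29 over 12 pairs, with DUSP1 and IER2 at 1.76 (1.04 to 2.78), while A.G.-ES CD4 T barcodes had 1.14 over 10 pairs. Upstream pairs had 1.04 in A.G.-ES CD8B T and 1.11 in A.G.-ES CD4 T barcodes, the latter close to the early gene median. In SOX13/RHEX T barcodes early genes had 1.12 in A.G.-ES and 1.10 in untreated ones, beside 1.08 and 1.02 for upstream pairs. A.G.-ES monocyte barcodes had a median of 1.00 over 12 pairs and untreated ones 1.05 over 4, beside 1.04 and 0.999 for upstream pairs. FOS, the AP-1 subunit gene, was found with the early genes at a median of 1.20 times the expected number in A.G.-ES and 1.96 times in untreated B barcodes, and at 1.60 and 1.55 times in SOX13/RHEX T barcodes. Pairs share barcodes and a gate can mix cell states, and the part of such mixing in co-detection was not tested.

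**Figure D5:**
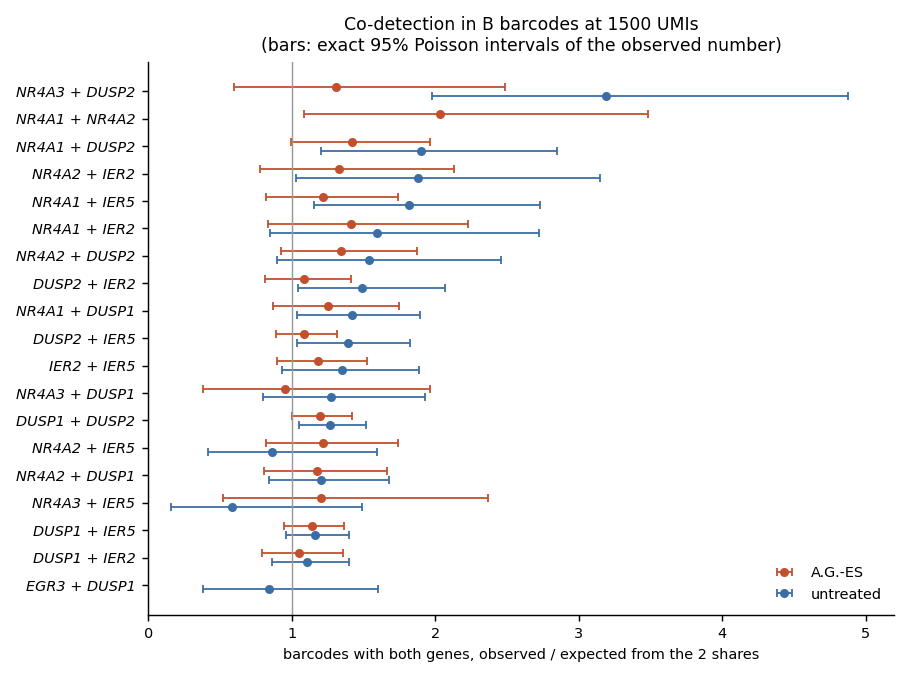
Observed over expected number of B barcodes with both genes of a pair (x axis, linear) at 1500 UMIs, for pairs of early genes with at least 5 barcodes expected (rows), A.G.-ES in red above untreated in blue; bars are exact 95% Poisson intervals of the observed number. NR4A3 with DUSP2 in untreated and NR4A1 with NR4A2 in A.G.-ES B barcodes lie farthest to the right.

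Inside 2 of the gates the ratios were taken again for barcodes with and without a UMI of a marker gene. The marker shares given here are without thinning, and whether they differ between the libraries was not tested. CCR7, a homing receptor of naive and central memory T cells, had a UMI in 7.70% of A.G.-ES and 5.0% of untreated CD4 T barcodes. DUSP2 was 3.70-fold higher in the CCR7-positive (1.64 to 10.3) and 4.67-fold higher in the CCR7-negative barcodes (3.53 to 6.28). The CCR7-positive ratio rests on 107 DUSP2 UMIs in 109 A.G.-ES barcodes and 6 in 18 untreated ones. FCER2, the low-affinity IgE receptor gene, had a UMI in 14.2% of A.G.-ES and 5.01% of untreated B barcodes. The DUSP2 ratio was 2.46 (1.99 to 3.06) in FCER2-positive and 2.48 (2.33 to 2.65) in FCER2-negative barcodes, and that of IER5 2.28 (1.88 to 2.77) and 2.02 (1.89 to 2.16). NR4A1 was at 1.13 (0.848 to 1.51) and 1.63 (1.44 to 1.85), and EGR3 at 0.949 (0.455 to 1.93) and 0.516 (0.368 to 0.708).

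Other genes of the same pathway were read from lists, over genes with at least 100 UMIs in the gate. Of the AP-1 genes, 4 of 5 measured were higher and 0 lower in CD8B T barcodes (median log2 ratio 1.38), with the stress-induced ATF3 at 2.30 and FOS at 1.87. In CD4 T barcodes 4 of 6 were higher (median 0.71), with FOS at 1.33 and ATF3 at 1.06. In B barcodes 2 of 7 were higher and 1 lower (median -0.25), with JUND at 1.12 and JUNB at 0.74, against FOS at -0.77 and ATF3 at -0.44. In monocyte barcodes 0 of 7 were past the mark. FOS and ATF3, the lowest of the AP-1 genes in B barcodes, thus lay below 0 there and above 0 in CD4 T and CD8B T barcodes. ATF3 was not past the mark in B barcodes. JUND and JUNB lay above 0 in all of these gates.

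Further early response genes had 6 of 12 higher and 0 lower in CD8B T barcodes (median 0.60), 1 of 15 higher and 1 lower in CD4 T barcodes (median 0.27) and 5 of 18 higher and 2 lower in B barcodes (median 0.36). RGS2, a regulator of G-protein signalling, was at 1.74 in CD4 T and 1.93 in CD8B T barcodes. MYC drives growth and GADD45A responds to DNA damage. In B barcodes RGS1 was at 2.38 and CITED2 at 1.27, and the lowest were GADD45A at -1.77 and MYC at -1.57. Among other MAP kinase phosphatases and feedback genes, 2 of 8 were higher and 4 lower in B barcodes (median -0.36). DUSP4, a nuclear phosphatase of ERK, was at 1.39 and DUSP5 at 0.78, while SPRED2 was at -1.52 and DUSP10 at -1.33. DUSP family members therefore lay on both sides in the same B barcodes.

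Genes of upstream kinases, transcription factors and EGR corepressors formed a further list. Beside 10.4% and 16.5% of all genes in B barcodes, 3 of its 23 were higher and 0 lower (median 0.023). NAB2, a corepressor that binds EGR proteins and is itself an EGR target, was the highest at 1.88, from 150 A.G.-ES and 122 untreated UMIs, followed by MEF2C at 0.72. In CD8B T barcodes 1 of 16 were higher and 5 lower (median -0.13), beside 5.81% and 24.9% of all genes. The lowest on the list were MAPK14, which encodes p38 alpha, at -1.44 and MAPK8, which encodes JNK1, at -1.22. In CD4 T barcodes 1 were higher and 2 lower of 19 (median -0.16), and in SOX13/RHEX T barcodes 1 and 5 of 17 (median -0.25). All genes gave 5.47% and 14.3% in CD4 T and 4.73% and 15.3% in SOX13/RHEX T barcodes. Heat shock genes (chaperones) had 0 of 5 higher in CD4 T, 0 of 5 in CD8B T, 0 of 5 in SOX13/RHEX T, 0 of 5 in B, 0 of 3 in monocyte and 1 of 1 in NK barcodes (HSP90AA1, log2 ratio 0.63), while 1 was lower in CD8B T and 1 in B barcodes.

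Across the 12 sums of 6 gates and 2 libraries, which share their library and depth within each set of 6, some early genes had like profiles. On the log2(CPM + 10) scale Pearson's r was 0.94 between EGR3 and DUSP1, 0.94 between NR4A1 and DUSP1, but -0.18 between NR4A1 and NR4A2. Among 7466 named genes with at least 500 UMIs, the nearest to NR4A1 was HBEGF, a growth factor gene (r = 0.97), and then TCF7L2 (r = 0.94). The nearest to DUSP1 was AKIRIN2 (r = 0.98), and the nearest to DUSP2 was GRK2, a receptor kinase gene (r = 0.87). PYGB came nearest to NR4A2 (r = 0.92) and CTDP1 to NR4A3 (r = 0.87), MARS1 to EGR3 (r = 0.98), HSPB1 to IER2 (r = 0.93) and CREG1 to IER5 (r = 0.91). These values describe 12 sums and carry no test.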

How the data were processed

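The deposited files hold raw UMI counts per gene and barcode for 1 A.G.-ES and 1 untreated library, made with the SeekOne DD 3′ kit and sequenced on a GeneMind instrument, per the labels' protocols. The genome build, the aligner, the read counter and the method that called cells were not given in the sources used here. The files held 9638 A.G.-ES barcodes with 44485442 UMIs and 8246 untreated barcodes with 55861418 UMIs. The number of unused value columns was 0. Whether UMIs were counted by strand is not known, so overlapping genes cannot be told apart.

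A barcode had to reach 500 UMIs and 200 genes with no more than 15% mitochondrial UMIs, which removed 186 A.G.-ES and 158 untreated barcodes. The highest Scrublet scores (scanpy 1.11.5) were removed as doublets at 0.8% per 1000 barcodes (715 and 523; Scrublet's own threshold marked 195 and 220). A T barcode needed at least 2 UMIs over CD3D and CD3E (CD3G was not used here) and at most 1 over B and 1 over monocyte markers. Within it the gates were CD4 T (CD4 at least 1, CD8B 0, SOX13 plus RHEX at most 1), CD8B T (CD8B at least 1, CD4 0, SOX13 plus RHEX at most 1) and SOX13/RHEX T (SOX13 plus RHEX at least 2, CD4 and CD8B 0). NK barcodes had NCR1 at least 1 with CD3D, CD3E, CD4 and CD8B at 0, B barcodes at least 3 UMIs over B markers such as MS4A1 and CD79A, and monocyte barcodes at least 3 over monocyte markers such as CD14 and CSF1R. Not every gate marker is reported here. These 3 gates allowed at most 1 UMI over each set of other lineage markers.

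Counts were summed per gate and library and given as CPM, with exact Poisson intervals. Ratios are A.G.-ES over untreated with exact conditional binomial intervals, and shares have exact (Clopper-Pearson) intervals. A gene counted as higher or lower past 1.5-fold. A count of 0 was given the upper limit of its exact Poisson interval. Ratios and their intervals were tested on simulated counts, and thinning on the untreated CD4 T barcodes. TMM factors came from edgeR 4.0.16, with no count test. Alternatives changed scaling, weighting, depth, barcodes, gates and minimum. The early genes, gene lists, gates and alternatives were chosen with earlier results of these data known. All 10 genes were named. From the other lists, at most the 2 highest and 2 lowest in a gate were named, and the nearest genes were those with the highest r.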

Additional observations from a re-analysis of the deposited data

How the results depend on the processing

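No paired analysis was possible because each group has 1 library. Of 44 gene-by-gate ratios with enough UMIs, 25 were past 1.5-fold, of which 14 stayed past it and 22 kept their sign under each of the 13 alternatives that gave a value. Those without cycling or antibody secretion barcodes were chosen after seeing the data. Thinned to 1000 UMIs, 3 called log2 ratios changed sign, NR4A1 at -0.48 and IER5 at -0.23 in CD8B T and NR4A3 at 1.39 in monocyte barcodes. Counts of genes past 1.5-fold differed by over 1.5 times as follows. With no count minimum, CD4 T barcodes had 5 higher and 1 lower (3 and 0 reported), CD8B T 1 lower (0), SOX13/RHEX T 2 lower (1), NK 6 higher (3) and monocyte barcodes 2 lower (1). With a minimum of 100 UMIs, 0 were lower in SOX13/RHEX T and 0 in monocyte barcodes. With barcodes weighted equally, 3 were higher in CD8B T (5), 1 lower in NK (0) and 2 lower in monocyte barcodes. Thinned to 1500 UMIs, monocyte barcodes had 4 higher (2) and 0 lower, and at 1000 UMIs 0 lower, with 3 higher in CD8B T and 0 lower in SOX13/RHEX T. Stricter gates gave 1 lower in CD4 T barcodes, and looser gates, or leaving out the top 1% of barcodes by early gene UMIs, 1 lower in NK. Monocyte barcodes had 1 higher with doublets kept, with all deposited barcodes and without cycling barcodes. NK barcodes gave no count when thinned, with stricter gates or at 100 UMIs. The causes were not tested. NK values rest on few barcodes, and those of EGR1, EGR2 and NR4A3 on few UMIs in most gates.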
